A study of Arabidopsis thaliana with 3 samples.

Results

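Salicylic acid output and turnover genes were described as a set of 9 Arabidopsis thaliana loci, chosen by identifier with earlier results of these data known. They were PR1 (AT2G14610), PR2 (AT3G57260), PR5 (AT1G75040), LURP1 (AT2G14560), DMR6 (AT5G24530), DLO1 (AT4G10500), NIMIN1 (AT1G02450), SAG13 (AT2G29350) and GRX480 (AT1G28480). Of these 9 genes, 6 were listed in at least 1 of the authors' deposited tables, which together list 2666 genes, and 3 were listed in neither. RNA-seq was done on whole seedlings at 14 days, of the crwn1 crwn2 double mutant, the pwo1 mutant and the wild type Col-0, all on MS plates in long days after 2 days of stratification and with no pathogen or hormone treatment given in the labels. The series holds 1 sample record per genotype, while its design text states 3 biological replicates for each, and for the mutant alleles no names were given in the sources used. The crwn1 crwn2 mutant is affected in a pair of genes for lamina-like coiled-coil proteins of the nuclear periphery, and the pwo1 mutant in the gene for a PWWP-domain partner of Polycomb proteins.

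Each table holds the authors' log2 fold change and p-value by edgeR and by Cuffdiff for the genes that they listed, 1935 for crwn1 crwn2 and 1239 for pwo1. The largest edgeR p in the authors' deposited tables was 0.00585 for crwn1 crwn2 and 0.00386 for pwo1, so a gene counts below as higher or lower when its table lists it. A gene that is not listed is not shown to be unchanged, and its level, fold change and p-value were not analysed here. Values per library, library depth and the spread between replicates were not analysed here either, so no error accompanies a fold change and the p-values carry the replicate spread as the authors' tools modelled it. The tables hold no expression levels, so the tissue label could not be checked against marker levels. Of the 6 root and 4 seed markers, 0 were listed in either table. Of the 4 leaf markers 1 was lower in crwn1 crwn2 (GLK1) and 2 were lower in pwo1 (GLK1 and GLK2). The leaf markers RBCS1A and LHCB1.3 were not listed in either. Beside these counts, 6.91% of all protein-coding genes were listed for crwn1 crwn2 and 4.38% for pwo1. The 0 listed root and seed markers are near those shares, and a change in tissue was not tested. In whole seedlings a change in RNA per cell and a change in the number of expressing cells cannot be told apart.

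Salicylic acid is the plant hormone of defence against biotrophic pathogens and of systemic acquired resistance. It acts largely through the coactivator NPR1, which works with TGA transcription factors at the promoters of output genes such as PR1, while NIMIN proteins bind NPR1 and GRX480 binds TGA factors. The pool of the hormone is held in check by conjugation to sugars and by hydroxylation, the step carried out by DMR6 and DLO1.

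The DNA element to which TGA factors bind has the core TGACG, known as the as-1 core, and WRKY factors bind the core TTGAC, the W-box core. The as-1 core sites of the members that a table lists are shown because NPR1 and TGA factors are known to act on PR1 through such sites. Sequences are from the RefSeq genome TAIR10.1, on the strand of the gene and 5′ to 3′. Each runs from 20 bases before to 20 bases after its site, and capitals mark TGACG read on either strand (CGTCA is the core on the opposite strand).
PR1, 585 bases upstream, chr2:6243085-6243146, minus strand: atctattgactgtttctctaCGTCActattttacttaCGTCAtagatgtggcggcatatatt
LURP1, 281 bases upstream, chr2:6213316-6213360, plus strand: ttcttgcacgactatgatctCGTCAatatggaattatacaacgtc
NIMIN1, 372 bases upstream, chr1:498887-498931, minus strand: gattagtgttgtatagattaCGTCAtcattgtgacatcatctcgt
NIMIN1, 305 bases upstream, chr1:498820-498864, minus strand: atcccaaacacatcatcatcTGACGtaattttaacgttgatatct
DMR6, 787 bases upstream, chr5:8377952-8378010, plus strand: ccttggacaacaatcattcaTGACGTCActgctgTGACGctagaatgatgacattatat
DLO1, 72 bases upstream, chr4:6490925-6490972, plus strand: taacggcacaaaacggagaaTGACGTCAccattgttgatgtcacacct
Distances are from the annotated gene start to the first base of the first core. PR5, the other listed member, had no as-1 core in the 1000 bases upstream, which says only that these letters are not in that window.

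The letters differed between members in number and place. PR1 carried 2 cores, both on the opposite strand and within the same 62-base stretch. The hydroxylase genes DMR6 and DLO1 each held the palindrome TGACGTCA, which contains the core on both strands, DMR6 far upstream and DLO1 close to its start. That palindrome was found within 1000 bases upstream of 1.19% of 27443 protein-coding genes, and it was singled out after the sequences had been seen. In a 1000-base window 7 of the 9 members held an as-1 core, against 54.1% of all promoters, and 9 of 9 held a W-box core, against 88.1% of all promoters. In the nearest 250 bases the counts were 2 of 9 for the as-1 core (18.6% of all promoters) and 4 of 9 for the W-box core (44.9% of all promoters). The as-1 cores nearest to a gene start belonged to DLO1 and GRX480. Of the 5 members listed for crwn1 crwn2, 0 had an as-1 core in the nearest 250 bases and 4 had one within 1000. Both cores overlap where TTGACG occurs, as in the LURP1 site and in both sites of PR2, and such a site was counted for each core. A match is a description of the letters and not a bound site.

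**Figure D1:**
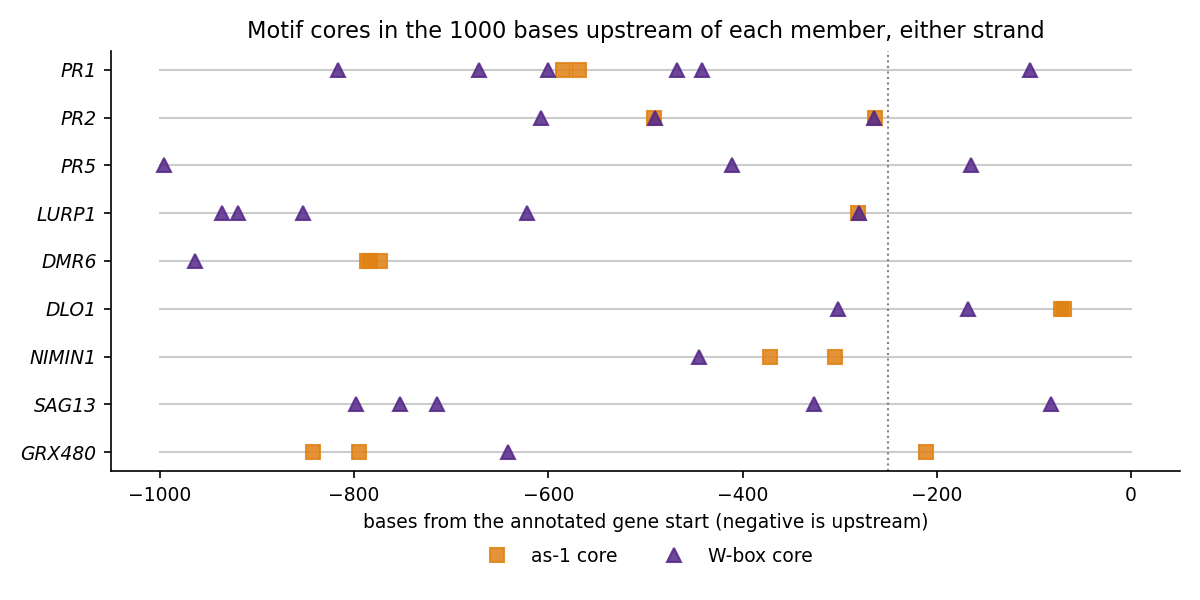
Positions of the as-1 core (orange squares) and the W-box core (purple triangles) on either strand in the 1000 bases upstream of each of the 9 members, in bases from the annotated gene start, with a dotted line at 250 bases. DLO1 and GRX480 are the members with an as-1 core right of the dotted line, and PR5 and SAG13 show none in the window.

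The first comparison asked how the set changes in crwn1 crwn2 relative to Col-0. Of the 9 members 5 were higher in crwn1 crwn2, 0 were lower and 4 were not listed. Of all protein-coding genes of the reference, 3.92% were listed as higher, 2.99% as lower and 6.91% in either direction. The 5 higher members were the secreted defence proteins PR1 and PR5, the defence gene LURP1, the NPR1-binding NIMIN1 and the salicylic acid hydroxylase gene DMR6. In the authors' deposited table their edgeR log2 fold changes ranged from 1.28 to 4.03 with a median of 1.96, beside a median of 1.01 over all genes listed as higher. Each of the 5 was at least 2-fold higher, and 2.76% of protein-coding genes were listed with a change of at least that size in either direction. Each also had a Benjamini-Hochberg upper bound under 0.05, taken over all 38094 reference genes, as did 5.72% of protein-coding genes.

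PR1 encodes a small secreted protein of the CAP family and is the standard marker of salicylic acid signalling. Its edgeR log2 fold change in the authors' deposited table was 4.03 for crwn1 crwn2 against Col-0, a 16.4-fold higher level (edgeR p = 2.19e-08). By that value it stood in place 11 from the highest of 1935 listed genes, but in place 251 by edgeR p. The Cuffdiff value in the authors' deposited table was 3.44 on the log2 scale, a 10.8-fold higher level, at that tool's smallest p of 5e-05. The 2 tools thus differed by 0.60 on the log2 scale for PR1, beside a median difference of 0.04 and a 95th percentile of 0.24 over the authors' deposited table for crwn1 crwn2. The direction was the same by both tools, and the gap between tools was the widest of the 5.

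PR5 encodes a thaumatin-like protein and was the least changed of the listed members. Its edgeR log2 fold change in the authors' deposited table was 1.28, or 2.43-fold higher in crwn1 crwn2 (edgeR p = 8.33e-06), and Cuffdiff gave 1.25. PR2, the secreted beta-glucanase usually read together with PR1 and PR5, was not listed. Of the 3 pathogenesis-related genes in the set, 2 were therefore higher and 1 has no value here. LURP1 is needed for full basal defence against the downy mildew oomycete. By edgeR in the authors' deposited table it was at 1.78 on the log2 scale, or 3.43-fold higher in crwn1 crwn2 (edgeR p = 7.27e-17). Cuffdiff gave 1.63 for LURP1 in the authors' deposited table, a difference of 0.15 between the tools.

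NIMIN1 encodes a small protein that binds NPR1 and dampens PR1 induction. Its edgeR log2 fold change in the authors' deposited table was 2.78, or 6.88-fold higher in crwn1 crwn2 (edgeR p = 6.58e-11), with 2.75 by Cuffdiff. NIMIN1 thus had the second largest fold change of the 5, after PR1. GRX480, the glutaredoxin that binds TGA factors and can repress jasmonate-responsive promoters, was not listed for crwn1 crwn2.

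DMR6 encodes an oxygenase that hydroxylates salicylic acid, and loss of it raises resistance to downy mildew. DMR6 had the smallest edgeR p of the listed members. In the authors' deposited table its edgeR log2 fold change was 1.96, or 3.88-fold higher in crwn1 crwn2 (edgeR p = 7.13e-30). This is place 9 of 1935 listed genes by p. Cuffdiff gave 1.91 for DMR6 in the authors' deposited table. DLO1, which encodes a related oxygenase that hydroxylates salicylic acid at another position of the ring, was not listed. SAG13, a short-chain dehydrogenase gene used as a marker of senescence and cell death, was not listed either. Whether DMR6 and DLO1 differed from each other in response was not tested.

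The second comparison asked how the same set changes in pwo1 relative to Col-0. Of the 9 members 4 were lower in pwo1, 0 were higher and 5 were not listed. Of all protein-coding genes of the reference, 2.5% were listed as lower, 1.88% as higher and 4.38% in either direction. The lower members were LURP1, DMR6, DLO1 and PR5. In the authors' deposited table their edgeR log2 fold changes ranged from -1.55 to -0.76 with a median of -0.95, beside a median of -0.83 over all genes listed as lower. These directions rest on the header of the pwo1 table having the same form as that of the crwn1 crwn2 table, because PWO1 itself was not listed. In the crwn1 crwn2 table the mutated genes CRWN1 and CRWN2 were lower, at -3.03 and -2.42 by edgeR in the authors' deposited table. Cuffdiff gave -3.09 and -1.57 there, so the tools differed by 0.85 on the log2 scale for CRWN2. LURP1 and DMR6 had an upper bound under 0.05, as did 3.33% of protein-coding genes, while DLO1 and PR5 had bounds of 0.057 and 0.077. LURP1 was the 1 listed member at least 2-fold changed, and 1.48% of protein-coding genes were listed with a change of at least that size.

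LURP1 was the most changed of the listed members in pwo1. Its edgeR log2 fold change in the authors' deposited table was -1.55, or 2.93-fold lower (edgeR p = 7.40e-14), with -1.54 by Cuffdiff, and it stood in place 49 of 1239 by p. For DMR6 the authors' deposited table has an edgeR log2 fold change of -0.76, or 1.69-fold lower (edgeR p = 4.51e-06), with -0.72 by Cuffdiff. For DLO1 the authors' deposited table has -0.99 by edgeR, or 1.98-fold lower (edgeR p = 0.00149), with -0.97 by Cuffdiff. Both hydroxylase genes were therefore among the genes listed as lower. PR5 was at -0.92 by edgeR in the authors' deposited table, or 1.89-fold lower (edgeR p = 0.00222), with -0.95 by Cuffdiff. PR1, PR2, NIMIN1, SAG13 and GRX480 were not listed for pwo1. PR1 and NIMIN1, the listed members with the largest fold changes in crwn1 crwn2, therefore have no pwo1 value here.

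**Figure D2:**
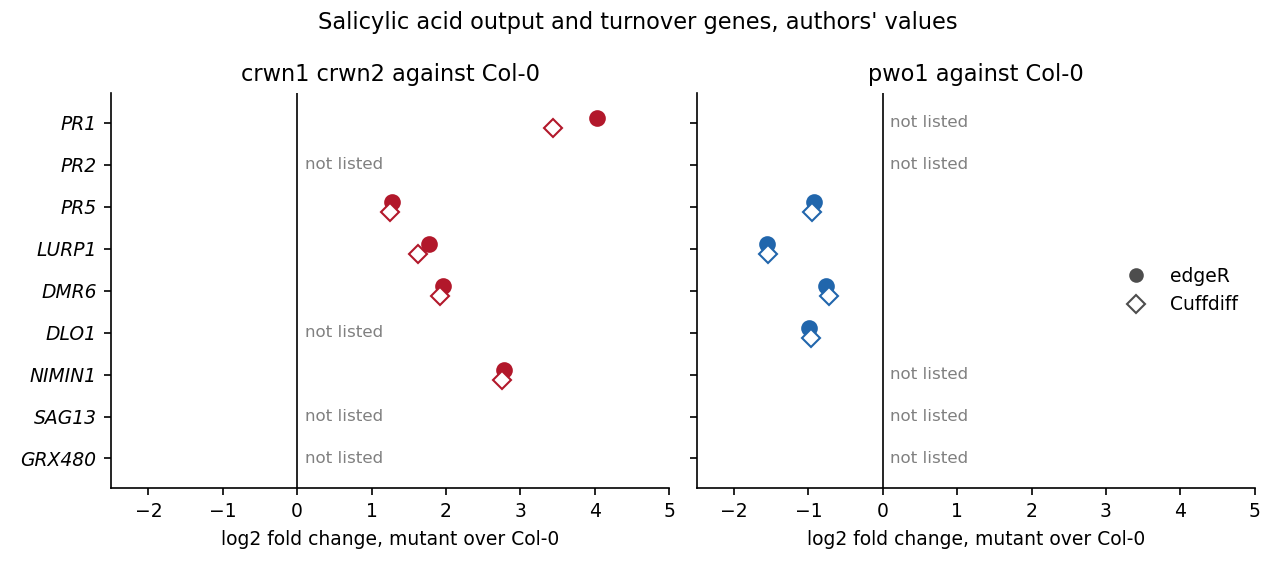
Log2 fold changes (x axis, mutant over Col-0) of the 9 members by edgeR (filled circles) and Cuffdiff (open diamonds), with crwn1 crwn2 on the left and pwo1 on the right. The 5 listed members lie between 1.25 and 4.03 in crwn1 crwn2 and the 4 listed members between -1.55 and -0.72 in pwo1, and the widest gap between tools is that of PR1.

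Set side by side, PR5, LURP1 and DMR6 have values in both of the authors' deposited tables. By edgeR in the authors' deposited tables, PR5 was at 1.28 in crwn1 crwn2 and -0.92 in pwo1, LURP1 at 1.78 in crwn1 crwn2 and -1.55 in pwo1, and DMR6 at 1.96 in crwn1 crwn2 and -0.76 in pwo1, each on the log2 scale against Col-0. Both comparisons use the same Col-0 samples, so these values are not independent, and the difference between the mutants was not tested.

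**Figure D3:**
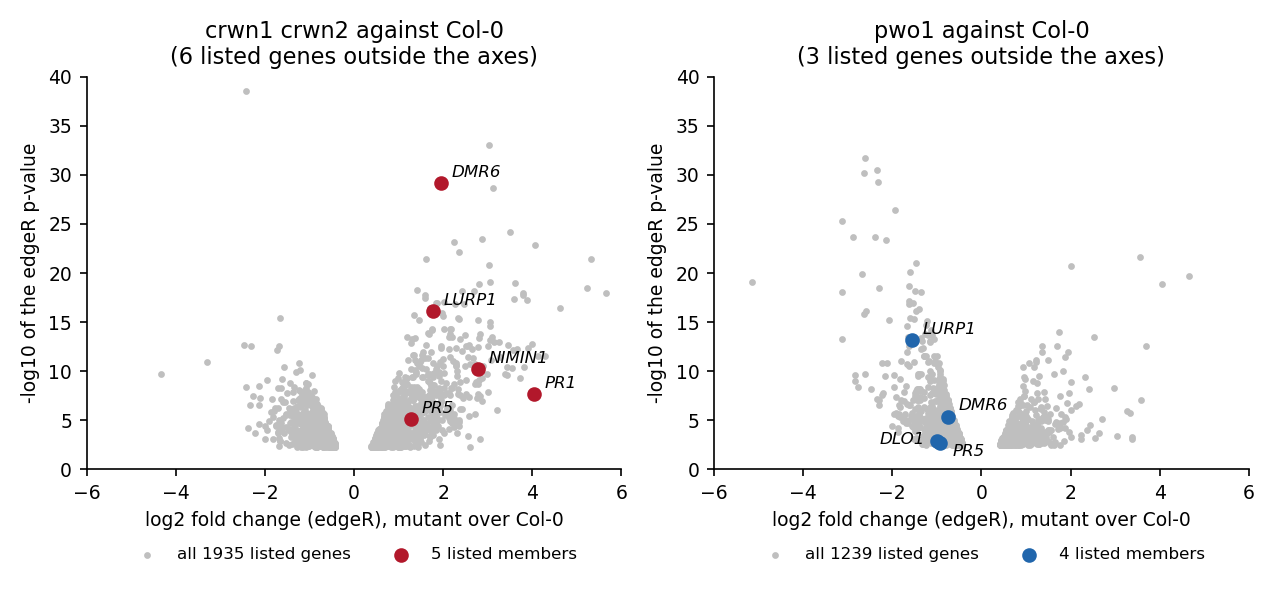
Each listed gene (grey) by its edgeR log2 fold change (x axis, mutant over Col-0) and the -log10 of its edgeR p-value (y axis), with the listed members coloured and named. In crwn1 crwn2 (left) DMR6 stands near the top at an edgeR p of 7.13e-30 and PR1 far to the right at 4.03, while in pwo1 (right) PR5 and DLO1 lie near the foot of the cloud, close to the listing limit.

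For the members with no value in a table, relatives and neighbours were looked up. The closest copy of PR2 elsewhere in the genome by nucleotide match was its neighbour BG3 (AT3G57240), another beta-glucanase gene, with 73.1% identity over 1163 bases. BG3 was at 2.65 by edgeR in crwn1 crwn2 in the authors' deposited table (log2 scale, p = 5.03e-13). The closest copy of GRX480 was the glutaredoxin gene GRXS13 (AT1G03850), with 64.6% identity over 311 bases, and in the authors' deposited table it had 1.44 in crwn1 crwn2 (edgeR p = 9.93e-07). For PR1 the closest copy was PRB1 (AT2G14580), the basic relative of PR1, with 80.4% identity over 734 bases. The authors' deposited table for pwo1 has PRB1 at -2.12 (edgeR p = 1.48e-11), and PRB1 was not listed for crwn1 crwn2. PR1 was listed for crwn1 crwn2 and not for pwo1, so no comparison holds a value for both genes. The closest match of SAG13 was AT2G29360, over only 105 bases, and that of PR5 was TLP-3 (AT1G75030), over 183 bases. For both DLO1 and DMR6 it was DLO2 (AT4G10490), over 1301 and 271 bases. AT2G29360, TLP-3 and DLO2 were listed in neither table.

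No member overlapped another annotated gene, so none shares its reads with an antisense or nested gene in this annotation. The closest match of 100 bases or more anywhere else ran from 64.6% to 87.5% identity for 8 members, and NIMIN1 had none. The highest was that of LURP1 to the lncRNA AT1G07623, over 518 bases, and it was listed in neither table. The treatment of reads that match 2 places was not given in the sources used here.

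PR1 and LURP1 lie close together on chromosome 2, at chr2:6241640-6242541 (minus strand) and chr2:6213617-6215932 (plus strand) in TAIR10.1, 25.7 kb apart with 7 annotated genes between them. PRB1 is 1 of those genes. Among the 87 annotated genes within 5 loci on either side of a member, 4 were listed for crwn1 crwn2, all higher, and 3 for pwo1, of which 2 were higher and 1 lower. These are 4.6% and 3.45% of the neighbours, beside 5.07% and 3.24% of all reference genes, so the neighbours of the members were listed about as often as genes at large. In crwn1 crwn2 the listed neighbours were BG3 beside PR2, the cell wall gene XTH10 next to PR1 at 1.73, AT1G02470 near NIMIN1 at 1.50 and AT2G29340 next to SAG13 at 0.74 in the authors' deposited table. In pwo1 they were PRB1, AT4G10510 near DLO1 at 1.25 and TRI near SAG13 at 1.14 (edgeR p = 0.00175) in the authors' deposited table.

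Upstream of the members act the genes of salicylic acid synthesis and signalling. Of 14 such genes 9 were higher, 1 was lower and 4 were not listed in crwn1 crwn2, and 4 were lower, 0 higher and 10 not listed in pwo1. For this list and those that follow, the shares of all protein-coding genes listed were 6.91% for crwn1 crwn2 and 4.38% for pwo1. The lower gene in crwn1 crwn2 was ICS2, the minor isochorismate synthase gene, at -1.09 in the authors' deposited table (edgeR p = 0.00528), and ICS2 was at -1.05 in pwo1. ICS2, EDS5 and SARD1 each overlap a further annotated gene, which leaves their values uncertain. The main synthase gene ICS1 was at 1.75 in crwn1 crwn2 and -0.62 in pwo1, and the transporter gene EDS5 at 1.74 in crwn1 crwn2, in the authors' deposited tables. FMO1 and ALD1, which make the systemic resistance signal N-hydroxypipecolic acid, were at 2.12 and 2.34 in crwn1 crwn2 and at -1.88 and -1.33 in pwo1 in the authors' deposited tables. Of the 4 genes lower in pwo1, 2 had a Benjamini-Hochberg upper bound above 0.05, namely ICS1 (0.081) and ALD1 (0.094), and so did ICS2 in crwn1 crwn2 (0.11).

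A further list of 12 genes covers salicylic acid conjugation and turnover and includes DLO2, the relative of the hydroxylase genes. In crwn1 crwn2 3 of them were higher, 0 were lower and 9 were not listed, and in pwo1 1 was lower and 11 were not listed. Among all protein-coding genes 6.91% were listed for crwn1 crwn2 and 4.38% for pwo1. UGT76B1, a glycosyltransferase of salicylic acid and N-hydroxypipecolic acid, had 1.52 in the authors' deposited table in crwn1 crwn2 (edgeR p = 2.56e-12). SOT12, a sulfotransferase gene, was at 0.98 and MES2, a methylesterase gene, at 0.48 in crwn1 crwn2 in the authors' deposited table, with an upper bound of 0.076 for MES2. The gene lower in pwo1 was GH3.5, which conjugates amino acids to salicylic acid and auxin. It stood at -0.54 in the authors' deposited table (edgeR p = 7.50e-05). Neither salicylic acid glucosyltransferase gene UGT74F1 or UGT74F2 nor the methyltransferase gene BSMT1 was listed in either table.

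The next list holds the salicylic acid receptors and the TGA factors themselves. Of its 12 NPR and NIMIN relatives and TGA factors, 1 was higher in crwn1 crwn2 and 1 was lower in pwo1, and 11 were not listed in each. A count of 1 of 12 is near the shares of all protein-coding genes listed, 6.91% for crwn1 crwn2 and 4.38% for pwo1. The higher gene was NIMIN2, a relative of NIMIN1, which the authors' deposited table has at 2.02 (edgeR p = 1.49e-10). The lower gene was NPR4, a salicylic acid receptor, at -0.46 in the authors' deposited table (edgeR p = 0.00216), which has a Benjamini-Hochberg upper bound above 0.05. NPR1 and all 7 TGA genes in the list were not listed in either table.

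Of 12 immune WRKY factors, 8 were higher and 4 were not listed in crwn1 crwn2. WRKY18, WRKY46 and WRKY60 had in the authors' deposited table log2 fold changes of 2.17, 2.16 and 2.14 in crwn1 crwn2, and WRKY54, a negative regulator of salicylic acid synthesis, one of 1.40. In pwo1 1 was higher and 1 lower of 12, namely WRKY18 at 1.04 (edgeR p = 0.00307) and WRKY54 at -1.17 in the authors' deposited table. The upper bound of WRKY18 in pwo1 was 0.099. WRKY70, the close partner of WRKY54, was not listed in either table.

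The list named other salicylic acid response genes was counted as well. Whether each of its genes, FRK1 among them, responds to salicylic acid in these seedlings was not tested. In crwn1 crwn2 12 of 13 were higher and 1 was not listed, with a median of 2.05 by edgeR in the authors' deposited table, and in pwo1 5 were lower, 2 were higher and 6 were not listed, with a median of -1.12. FRK1 had the largest value of this list in crwn1 crwn2, at 4.07 (edgeR p = 1.35e-23) in the authors' deposited table. The peptide gene PNP-A was at 3.45 in crwn1 crwn2, and the glutathione transferase genes GSTF6 and GSTF7 at 2.43 and 2.27, in the authors' deposited table. In pwo1 the lectin gene LLP1 was at -2.38 (edgeR p = 2.20e-24), PCC1 at -2.30 and the cell death regulator ACD6 at -1.31 in the authors' deposited table. Of these, LLP1 was at 0.84 and ACD6 at 0.57 in crwn1 crwn2 in the authors' deposited table, and PCC1 was the gene not listed there. The upper bound of ACD6 in crwn1 crwn2 was 0.065 and that of KTI1 in pwo1 was 0.072. The 2 genes higher in pwo1 were EARLI1 at 1.04 and the protease inhibitor gene KTI1 at 0.54 in the authors' deposited table. The values of LLP1, EARLI1 and FRK1 are uncertain because each overlaps a further annotated gene, and those of GSTF6 and GSTF7 because the pair is closely alike in sequence.

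Jasmonate and ethylene markers, which salicylic acid often opposes, were listed for 3 of 10 genes in crwn1 crwn2 and 2 of 10 in pwo1. In crwn1 crwn2 VSP2 was at -2.21 and AOS at -1.28, both jasmonate genes, and the ethylene-responsive PR4 at 1.29 in the authors' deposited table. In pwo1 AOS was at -1.41 and LOX2 at -1.01 in the authors' deposited table. PDF1.2, the promoter of which GRX480 is known to repress, was not listed in either table.

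**Figure D4:**
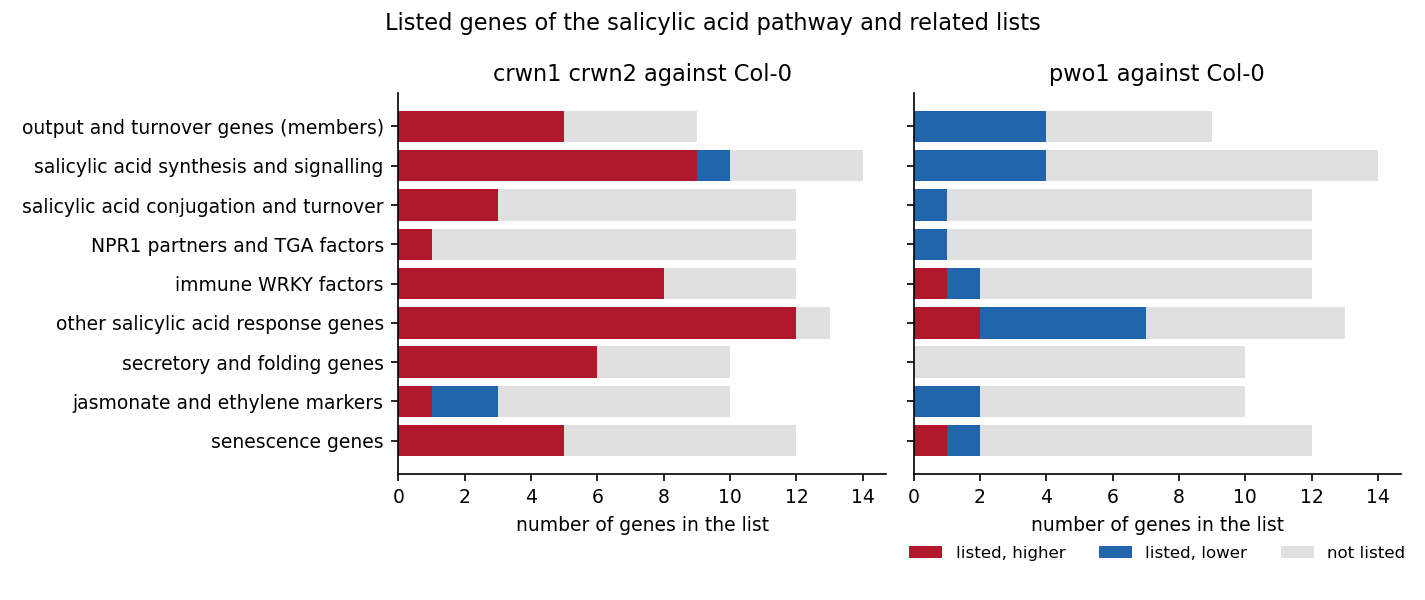
Number of genes (x axis) in the member set and 8 related lists that were listed as higher (red), listed as lower (blue) or not listed (grey) against Col-0, with crwn1 crwn2 on the left and pwo1 on the right. For the 9 members the counts are 5 higher in crwn1 crwn2 and 4 lower in pwo1, and for the 13 other salicylic acid response genes 12 higher in crwn1 crwn2.

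**Figure D5:**
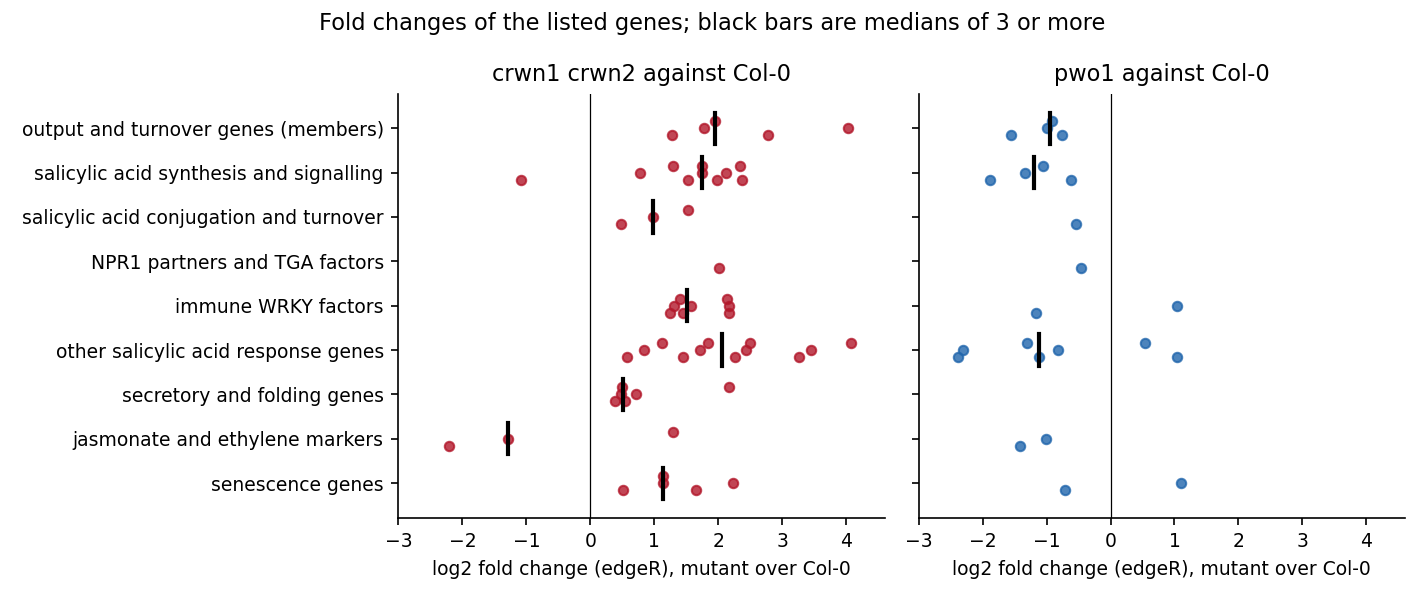
Log2 fold changes by edgeR (x axis, mutant over Col-0) of each listed gene in the same lists, with a black bar at the median of lists with 3 or more listed genes. The member median is 1.96 in crwn1 crwn2 (left) and -0.95 in pwo1 (right), and PR1 at 4.03 is the rightmost member.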

How the data were processed

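RNA-seq of whole seedlings was compared between each mutant and Col-0. Each deposited table gives, per the file headers, log2 fold changes and p-values by edgeR and by Cuffdiff, as the authors computed them. Named in the submitters' processing notes are Trimmomatic 0.35, TopHat2 2.0.12, HTSeq 0.6.1, edgeR 3.3 and Cuffdiff 2.2.1, with the build TAIR10. Normalization, low-count filter, listing threshold and use of strand were not given in the sources used here. Library depth is unknown, so no interval was computed.

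The members and lists were chosen with earlier results of these data known. All members are reported, and any listed gene of the 12 other lists could be named. Fold changes are mutant over Col-0. The share of genes called was taken over 27562 protein-coding genes of RefSeq TAIR10.1, because the genes that the authors tested are not known. That annotation held 1933 of 1935 and 1236 of 1239 listed identifiers. A Benjamini-Hochberg upper bound of the authors' edgeR p was computed over its 38094 genes and tested on simulated data. Positions and sequences were looked up by locus in TAIR10.1, which keeps the nuclear chromosomes of TAIR10, and the tables hold no coordinates. Relatives were found with BLAST 2.17.0 (blastn) on gene spans, since no protein table was used here. Alternatives were Cuffdiff values, stricter thresholds, another denominator and, added after seeing the data, a longer promoter window. Python 3.11.15 and pandas 2.3.3 were used.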

Additional observations from a re-analysis of the deposited data

How the results depend on the processing

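In crwn1 crwn2 the count of 5 members was 5 under each stricter rule, namely both p-values under 0.001, a 2-fold change and a Benjamini-Hochberg upper bound under 0.05. In pwo1 the count of 4 members was 2 with both p-values under 0.001, 1 with a 2-fold change and 2 with the upper bound. The median log2 fold change of the listed members in the authors' deposited tables was 1.91 by Cuffdiff against 1.96 by edgeR in crwn1 crwn2, and -0.96 by Cuffdiff against -0.95 by edgeR in pwo1. All 9 member fold changes had the same direction by both tools. With all reference genes as the denominator the listed share was 5.07% in crwn1 crwn2 and 3.24% in pwo1. A window of 1000 bases, added after seeing the data, raised the count of members with an as-1 core to 7 and with a W-box core to 9. No paired analysis was possible because the tables hold no values per library, and for the same reason no replicate could be left out.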

Other observations

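PR proteins leave the cell through the secretory pathway. Of 10 genes on a list for secretion and folding, 6 were listed in crwn1 crwn2, all higher, and 0 in pwo1. That list also holds the regulatory gene TBF1, which was not listed in either. Among all protein-coding genes 6.91% were listed for crwn1 crwn2 and 4.38% for pwo1, so 0 of 10 in pwo1 is near that share. In the authors' deposited table the endoplasmic reticulum chaperone genes BIP3, BIP2 and BIP1 were at 2.17, 0.71 and 0.49 in crwn1 crwn2, with edgeR p = 2.31e-06, 1.29e-06 and 6.21e-04. CRT3, CNX1 and SDF2, which act in folding and quality control of secreted proteins, had log2 fold changes of 0.54, 0.48 and 0.39 there, by the authors' deposited table, with a Benjamini-Hochberg upper bound of 0.089 for SDF2. BIP1 and BIP2 are very similar in sequence, which makes each value uncertain.

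SAG13 was not listed, and among 12 other senescence genes 5 were higher and 7 were not listed in crwn1 crwn2. The share of all protein-coding genes listed was 6.91% for crwn1 crwn2 and 4.38% for pwo1. In the authors' deposited table SAG14 was at 2.23, SAG21, which overlaps a further annotated gene, at 1.66, the transcription factor genes ORE1 and WRKY6 at 1.14 and 1.13 and the chlorophyll breakdown gene NYE1 at 0.51 in crwn1 crwn2. In pwo1 SAG21 was at 1.10 and the transcription factor gene NAP at -0.71 in the authors' deposited table, and SAG12, the most specific marker of leaf senescence, was listed in neither table. The upper bound was above 0.05 for NYE1 in crwn1 crwn2 (0.063) and for NAP in pwo1 (0.081).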
